A study of Mus musculus with 12 samples.

Results

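Very long genes consist mostly of intron, and the ESRP1 contacts described here lie inside them, away from both ends of the gene span. They are binding regions whose middle falls in exactly 1 protein-coding span of at least 100000 nt, on the strand that holds most of the gene's sites and at least 5000 nt from both ends. Sites of 1 strand were joined where they were at most 10 nt apart, and only regions with sites in all 3 site lists were kept. This gave 1152 regions, which is 11.9% of the 9649 regions found in all 3 lists, among 45738 regions in any list. The regions lay in 776 of the 2429 mouse protein-coding genes with a span of that length. The regions were chosen by the position and strand of the called sites and by their presence in every list, so their number, their agreement between lists and their position are descriptions and carry no test. All coordinates are on GRCm38.

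The study mapped RNA contacts of ESRP1 by enhanced crosslinking and immunoprecipitation (eCLIP) in epidermis from back skin of mouse pups on postnatal day 1. In this assay ultraviolet light links a protein to the RNA it touches, and the contact is read from where reverse transcription stops. All animals carried a FLAG tag on endogenous Esrp1 (Esrp1FLAG/FLAG), and the 12 libraries were 6 FLAG immunoprecipitates and 6 inputs without antibody, from biological replicates 1 to 6. No animals lacking the tag or ESRP1 are among the groups, so the input is the only background. The deposited values are 3 lists of 1-nt sites: list 1 from replicates 1 and 2, list 2 from replicates 3 and 4, list 3 from replicates 5 and 6, with 73602, 40014 and 53864 sites. The lists give no read counts, so the depth behind a site is unknown. Of 10 epidermal marker genes 9 had a site, with 679 sites in all on the strand with most sites of each gene, and Krt14 had none. The 6 endothelial markers had no site on either strand, though Ptprb, an endothelial gene of a further marker list, had a site. Counted in the same way, 5 immune markers had 17 sites, all in Csf1r, and 7 muscle markers had 27, all in Dmd (13 more lay on its other strand). Of 7 fibroblast markers 3 had a site, with 31 sites in all and 24 of them in 1 gene. Of 5 melanocyte markers 3 had a site, with 25 in all and 19 of them in 1 gene.

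ESRP1 is an epithelial RNA-binding protein that controls alternative splicing, and it is known to prefer sequences rich in UGG. In general such regulators act from introns beside an alternative exon, where the position of binding upstream or downstream of the exon decides between skipping and inclusion. Sites far inside a long intron are common in crosslinking data and often cannot be tied to an exon. The annotation used here gives the extent of genes and no exons, so whether each region is intronic was not checked.

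Sequence was at hand for only 2 of the 1152 regions, those inside the window from 250 nt before to 50 nt after an annotated start in the RefSeq promoter table (GRCm38.p6). They are shown because no other member's sequence was at hand, as 30 nt on the strand of the sites with each TGG (UGG in RNA) in capitals.
Trip12: TGGggggggTGGggggagccagTGGaagtt
Gm7592: tttgttatctaattttgtaatacTGGggac
The Trip12 stretch covers chr1:84839276-84839305 on the minus strand, and the nucleotide called in all 3 lists is position 16 from its 5′ end. Trip12 encodes a ubiquitin ligase, and its region lay 5 to 16 nt after an annotated start inside the gene, 10711 nt into the span. The highest scores there were 93.5, 87.6 and 53.2 in lists 1, 2 and 3, which are the 93.9th, 95.4th and 83.9th percentiles of sites in those lists. This stretch holds TGG 3 times, and GGTGG, which contains TGG, once. On the opposite strand it holds TGG once and GGTGG not at all. At the same offset, 48.7% of 32851 promoter windows hold TGG and 4.79% hold GGTGG, against 39.6% and 3.27% on the opposite strand. Neither stretch holds TGGTGGG on either strand, which occurs in 0.332% of windows at the Trip12 offset. The Gm7592 stretch, chr1:85496185-85496214 on the minus strand, lies in the promoter window of Gm2427, which is on the plus strand, and also under the pseudogene Gm2666, so the RNA contacted there is uncertain. It holds TGG once and GGTGG not at all. At its offset 43.1% of windows hold TGG and 4.08% GGTGG. On the opposite strand the Gm7592 stretch holds neither, against 42.3% and 3.84% of windows.

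Each region was small. Their median length was 9 nt, against 8 nt for the other regions found in all lists, the longest was 37 nt and 58 were a single nucleotide. Members held 4461, 2441 and 3871 sites of lists 1, 2 and 3, which is 6.45% ± 0.639 of a list's sites (SD, n = 3 lists). A region had a median of 4 sites in list 1, 2 in list 2 and 3 in list 3, and a lone site made up 12.5%, 40.02% and 15.97% of them. The highest score per region, on the authors' own scale, had medians of 37.8, 27.4 and 35.2 in lists 1, 2 and 3, with quartiles of 18.2 and 78.3, 15.8 and 50.5, and 20.9 and 62.4. The same medians over all 9649 regions were 42.0, 27.3 and 40.6. In 906 of the 1152 regions (78.6%, 95% exact binomial interval 76.2 to 81.0) at least 1 nucleotide was a site in every list, against 82.3% of all regions found in all lists. Binomial intervals here and below are Clopper-Pearson intervals and cover counting error only.

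Contacts were spread over many genes, few of which held more than 1 or 2. A lone region was present in 542 genes (69.8%), 146 genes had 2, 62 had 3 and 26 had 4 or more. Among the 2429 long genes 31.9% had a member, and 18.0% of the 6410 interior regions called in any list on that strand were in all 3, beside 21.1% of all 45738 regions. The median span of the 776 genes was 199198.5 nt, against 171832 nt for all long genes. Longer genes more often held an interior region on the strand with most sites, and held fewer regions per length. These counts include regions on the strand opposite to the gene, which are described below. An interior region was present in 27.1% of 1439 genes of 100000 to 200000 nt, in 36.2% of 638 genes of 200000 to 400000 nt, in 42.5% of 254 genes of 400000 to 800000 nt and in 48.0% of 98 genes of 800000 nt or more. Per megabase of interior the same genes had 3.04, 2.05, 1.31 and 0.654 regions, so that the longest genes had the lowest density of these groups. Genes of 50000 to 100000 nt, outside the rule, had 4.65 per megabase.

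**Figure D1:**
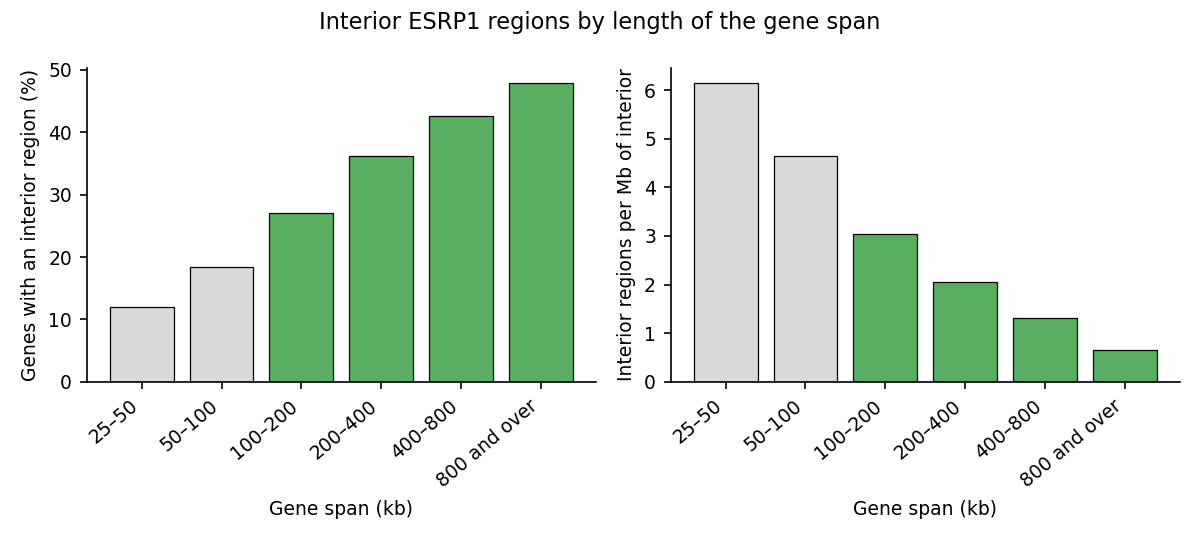
Interior ESRP1 regions found in all 3 lists by gene span in kb; the left bars give the percentage of genes with such a region and the right bars the regions per megabase of interior, with genes under the length threshold in grey. The percentage of genes climbs to 48.0% in genes of 800 kb or more while the density drops to 0.654 per megabase.

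Regions continued across both thresholds. Spans of 100000 to 110000 nt held 91 members, and spans of 90000 to 100000 nt held 138 regions that met the rest of the rule. The shortest spans inside were those of Tut4 (100006 nt), a terminal uridylyl transferase gene, and Abi1 (100169 nt), an actin regulator gene, and the longest outside those of Vmp1 (99979 nt) and Rbm6 (99800 nt). At the gene ends, 24 members lay 5000 to 6000 nt from an end and 39 regions lay 4000 to 5000 nt from one. A region of Msi2 lay 5040 nt from the 3′ end and one of Mboat2 5139 nt, while one of Gfod1 at 4989 nt and one of Rora at 4981 nt fell just outside.

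The genes richest in interior regions differed in how these were placed. Marchf3, encoding a membrane ubiquitin ligase, and Skint6, a butyrophilin-like gene of the epidermis, had 9 each. Pard3, the polarity scaffold of tight junctions, and Adgrl2, an adhesion G protein-coupled receptor gene, had 7, and Lpp, a focal adhesion protein gene, and Arl15, a small GTPase gene, had 6. Casz1, a zinc-finger transcription factor gene, Pdzd2, Maml3, a Notch coactivator gene, Plxdc2, Exoc6b, an exocyst subunit gene, and Mtus2 had 5 each. Ptprd and the glypican gene Gpc6 also had 5 and were placed after these 12 for having fewer sites on the members' strand, with 44 and 37. Counted over both strands Ptprd, with 11 more, would come before Mtus2, with 6 more. In Plxdc2 all 5 regions lay within the 171320 nt nearest the 5′ end of 405393 nt, and in Casz1 3 of 5 lay between 140270 and 140677 nt into the gene. Over the 12 genes the number of sites on the members' strand ran from 47 in Mtus2 to 130 in Marchf3. Marchf3 held 58, 32 and 40 sites of lists 1, 2 and 3 on that strand and none on the other. Skint6 held 50, 28 and 42, with 27 on the other strand, and Pard3 held 51, 34 and 30, with 8 on the other.

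**Figure D2:**
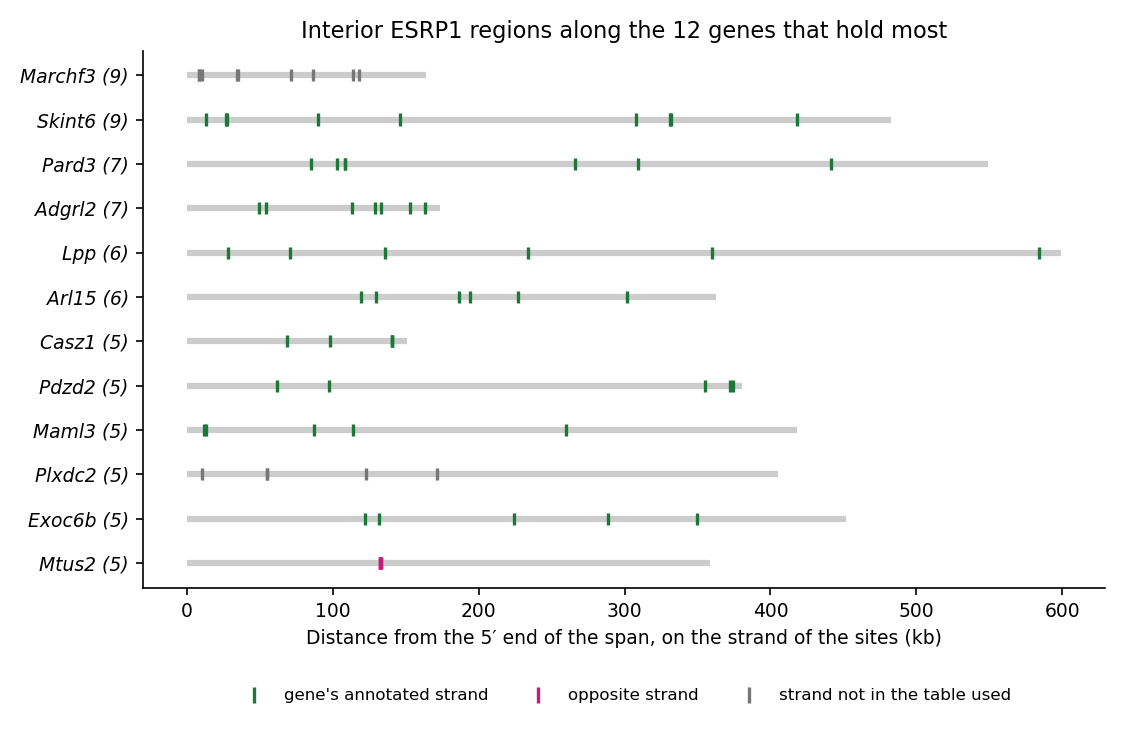
Each grey bar is the span of a gene, drawn from its 5′ end on the strand of the sites in kb, with a tick for every interior region found in all 3 lists and the number of regions in brackets. The 6 regions of Lpp lie apart from each other, those of Plxdc2 keep to the 5′ side, and the 5 of Mtus2 coincide near 132 kb, on the strand opposite to the gene.

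Pard3 showed how strength varied within a gene. Its strongest region, chr8:127504795-127504797 on the plus strand, lay 441415 nt into a span of 548906 nt, and scored at most 202, 254 and 115 in lists 1, 2 and 3. All 3 of its nucleotides were sites in every list. The other 6 Pard3 regions had highest scores between 8.02 and 98.4, below that region in every list. In Adgrl2 the region at chr3:148935111-148935119 on the minus strand had scores of 146, 150 and 129, close to each other across lists. Another Adgrl2 region, chr3:148836312-148836318, scored 19.8, 3.86 and 0.490, so its lists were far apart. Lpp had a region at chr16:24463676-24463683, plus strand, with 193, 198 and 72.9, high in lists 1 and 2 and lower in list 3. In Arl15 the strongest, chr13:114096293-114096299 on the plus strand, had 102, 147 and 82.9.

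Genes with as many regions differed in how strong these were. Marchf3 held a region at chr18:56915170-56915172 on the minus strand that scored 124, 63.1 and 122 in lists 1, 2 and 3. Its region at position 56917680, 1 nt long, scored 6.07, 61.8 and 160.4, so the lists disagreed on it by more than on the former. The 9 Skint6 regions were weak, with scores from 1.38 to 56.6 over all lists, and 3 of them lay under the pseudogenes Gm12816 and Gm12818. Skint6 belongs to a family of close copies, so reads there may come from a relative. Casz1 had its strongest region toward the 3′ side, at chr4:148945028-148945030 on the plus strand, with 162, 88.8 and 134. A further Casz1 region only a few nt away, 1 nt long at 148945043, had 8.52, 4.09 and 86.4, high in list 3 alone.

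Neighbouring regions of a gene were usually far apart, with some tight groups. The 376 pairs of neighbours in the same gene had a median gap of 23329.5 nt, and 89 gaps (23.7%) were under 1000 nt. Of the 163 regions in such groups, 44 lay under a pseudogene. All 5 Mtus2 regions lay within chr5:148182976-148184060 on the minus strand, under the pseudogene Gm10167, although Mtus2 itself is annotated on the plus strand. Their highest scores ran from 27.9 to 283 in list 1, 26.1 to 95.5 in list 2 and 43.0 to 71.9 in list 3. Spata6, a gene of sperm formation, repeated this picture with 3 regions on the strand opposite to it, under the pseudogenes Gm12960 and Gm12961. The strongest of them scored 473, 236 and 223 in lists 1, 2 and 3.

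Interior regions lay under annotated pseudogenes far more often than the length of those pseudogenes gives. Pseudogenes are copies of genes left in the genome, and a read from a copy or its parent gene can align to either, so the RNA contacted there is uncertain. They covered 0.393% of the 583 megabases of long-gene interior but held 107 of the 1152 members (9.29%, exact binomial interval 7.67 to 11.1). In the interior of shorter genes 84 of 1544 regions (5.44%, 4.36 to 6.69) lay under a pseudogene, and within 5000 nt of the ends of long genes 1 of 339 (0.295%, 0.00747 to 1.63) did. The length covered by pseudogenes was computed for the interior of long genes only. Whether the excess over length differs between these classes is therefore not known. Long noncoding RNA genes covered 4.49% of the interior and held 51 members (4.43%, 3.31 to 5.78), about what their length gives. In all, 156 members (13.5%, 11.6 to 15.7) lay under some other annotated gene, 1 of them a tRNA gene. These shares were not tested, because the regions share genes and libraries and the lists are few.

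The strongest interior regions came from genes of quite different kinds. The 10 leading regions, 1 per gene, ranked by the mean percentile of the highest score within each list, were in Rbms3, Sema3e, Atrn, Cast, Spata6, Snx29, Myo6, Sbf2, Lama3 and Csmd3. Rbms3, an RNA-binding protein gene with a span of 1057168 nt, had 404.8, 275 and 457 in lists 1, 2 and 3 at chr9:117232334-117232335 on its own, minus strand. It had only 7 sites on that strand in all lists. Sema3e, a semaphorin gene, had 417, 252 and 422 at chr5:14052375-14052376, and Atrn, the attractin gene, had 478, 252 and 304 at chr2:130981544-130981551. Both regions lay on the minus strand, while both genes are annotated on the plus strand. The Sbf2 region, chr7:110426184-110426192 with 334, 195 and 226, was likewise opposite to its gene and under no other annotated gene. Cast, encoding the protease inhibitor calpastatin, had 384, 214 and 277 on its own strand but under the pseudogene Gm6296. Snx29 (370.1, 205 and 258), a sorting nexin gene, and Myo6 (272, 190.0 and 307), a myosin gene, were bound on their own strand and under no other gene. For Lama3, which encodes a chain of the laminin that anchors the epidermis, the region at chr18:12366202-12366212 scored 252, 194 and 274, with 9, 6 and 8 sites. Csmd3, a large gene known from brain, had 301, 193 and 210 at chr15:47893679-47893681. The table gives no strand for Lama3 or Csmd3. List 1 gave the top value in 6 of these 10 regions, list 3 in 4 and list 2 in 0.

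**Figure D3:**
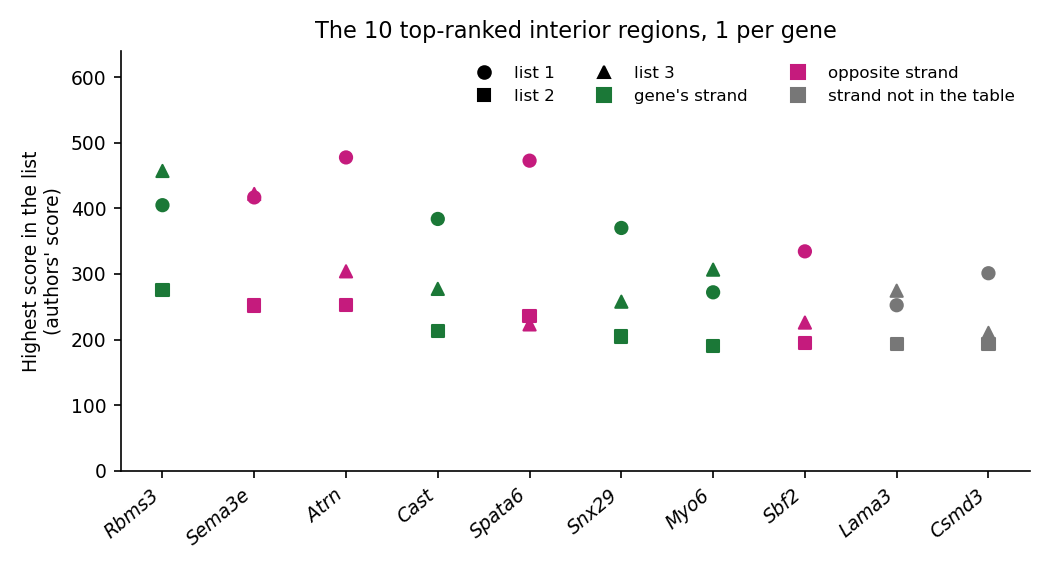
Highest score of the 10 leading interior regions in each list, on the authors' scale, with marker shape for the list and colour for the strand relative to the gene. All values lie between 190.0 and 478. Of the 10 regions 4 are opposite to their gene, and those of Lama3 and Csmd3 have no strand to compare with.

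The strand of each gene was then taken from the promoter table, which the rule for choosing regions had not used. It gives a strand for 882 members (76.6%), below the 80% set for a check over all of them. Strand was therefore described only on chromosomes where the table lists at least 75% of protein-coding genes, which leaves out 8, 15 and 18. On the remaining chromosomes 81.0% of 1017 members had a strand, and the missing ones may differ. Of these 824 regions 659 lay on the gene's strand and 165 (20.02%, exact binomial interval 17.3 to 22.9) on the opposite strand, in 132 of 560 genes. In those 132 genes the strand with most sites was not the strand of the gene. Counting both strands, without the choice of the strand with most sites, 211 of 892 interior regions (23.7%, 20.9 to 26.6) were opposite. In the interior of shorter genes 147 of 1188 (12.4%, 10.6 to 14.4) were opposite, and at the ends of long genes 9 of 255 (3.53%, 1.63 to 6.59). With spans of 50000 to 100000 nt the share was 14.7% (11.9 to 17.9), with 100000 to 200000 nt 19.7% (16.1 to 23.8) and with 400000 to 800000 nt 27.7% (20.5 to 35.8). With spans of 200000 to 400000 nt and of 800000 nt or more, 77.2% and 73.75% of regions had a strand. Both fall below the 80% set for a check, so their shares are not given.

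The same order held within each list. Taking all regions of a list, the opposite strand held 18.9%, 14.8% and 17.2% of interior regions of long genes in lists 1, 2 and 3. At the ends of those genes it held 3.67%, 3.08% and 2.46%, and in the interior of shorter genes 10.03%, 7.44% and 8.46%. The mean was 17.0% ± 2.05 (SD, n = 3 lists) in the interior of long genes against 3.07% ± 0.603 at their ends. That is a difference of 13.9 percentage points, higher in 3 of 3 lists (exact sign-flip permutation test over lists, two-sided, p = 0.25, the smallest that 3 lists can give). Against the interior of shorter genes, at 8.64% ± 1.30, the difference was 8.32 points, again in 3 of 3 lists (exact permutation p = 0.25). The design cannot pass 0.05.

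**Figure D4:**
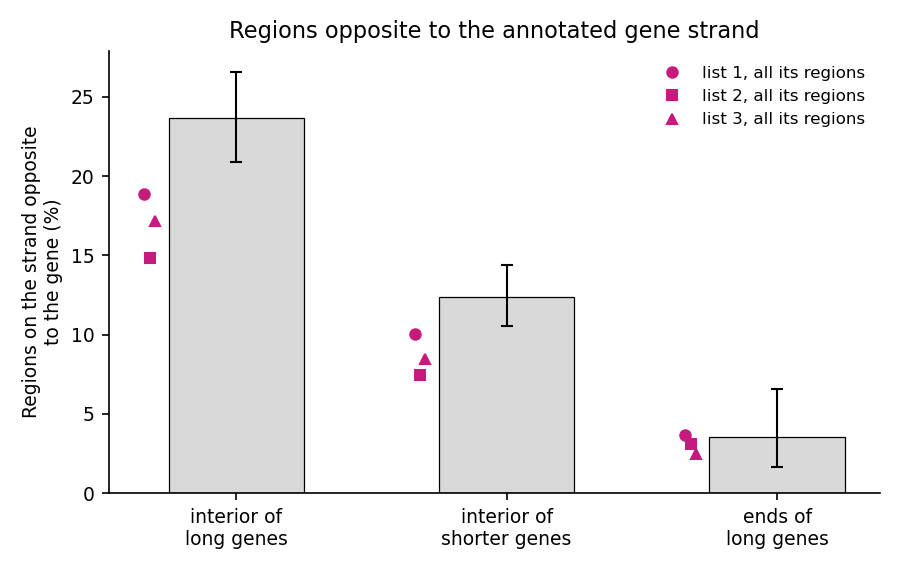
Percentage of regions on the strand opposite to the annotated gene; bars are regions found in all 3 lists with 95% exact binomial intervals, and points are all regions of each list. The interior of long genes stands at 23.7%, against 12.4% in the interior of shorter genes and 3.53% at the ends of long genes.

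Opposite-strand regions recurred at least as well as the others and, among members, scored at least as high. Over interior regions on both strands, the opposite strand held 11.2% of those called in 1 list, 17.7% of those in 2 and 23.7% of those in 3. In the interior of shorter genes the shares were 5.43%, 9.13% and 12.4%, in the same order. Among members, the median highest scores were 53.0, 33.2 and 46.3 in lists 1, 2 and 3 on the opposite strand, against 35.1, 26.5 and 33.4 on the gene's strand. Among the 288 members with the highest score percentiles 29.4% (23.3 to 36.2) of those with a strand were opposite, and among the 288 with the lowest 12.6% (8.41 to 17.9). Members lie by rule on the strand with most sites. An opposite region thus entered both comparisons only where its strand held most sites of the gene. Of the 165 opposite members 44 (26.7%) lay under a pseudogene, against 34 of 659 (5.16%) on the gene's strand, and 116 lay under no other annotated gene at all. Away from pseudogenes 121 of 746 members (16.2%, 13.6 to 19.1) were opposite. Genes with a lone member had 27.2% (22.9 to 31.9) on the opposite strand and genes with 3 members 10.2% (5.82 to 16.3). Overlap with annotated pseudogenes was the only measure of gene copies here. The part of copies in this pattern was not tested. Examples under a pseudogene are Mtus2, Spata6 and Tut4 (Gm12739). Examples under no other gene are Sema3e, Atrn, Sbf2 and Macrod2, whose region scored 95.2, 62.2 and 24.5 in lists 1, 2 and 3 within a span of 1997664 nt.

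Along the gene, members on the gene's own strand lay somewhat toward the 3′ side. With the interior divided into 5 equal parts from the 5′ to the 3′ side, they numbered 113, 132, 85, 140 and 189 of 659. The last part thus held 28.7% (25.3 to 32.3) and the middle part 12.9% (10.4 to 15.7), where an even spread gives 20% each. The 165 opposite members, placed in the same direction of the gene, numbered 29, 45, 38, 35 and 18, with the fewest in the last part.

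Recurrence was then measured in a list that had not been used to choose the regions. Regions were built from 2 lists by the same rule and looked for within 10 nt in the remaining list. Of such interior regions 90.0% (1149 of 1276) were found in list 1, 69.3% (1148 of 1657) in list 2 and 64.6% (1149 of 1779) in list 3. The mean was 74.6% ± 13.5 (SD, n = 3 lists). At the ends of long genes the values were 86.7%, 59.9% and 76.6%, a mean of 74.4% ± 13.5, and in the interior of shorter genes 87.5%, 67.7% and 70.0%, a mean of 75.1% ± 10.9. Neither difference exceeded the spread: interior minus ends was 0.22 ± 11.0 percentage points and long minus shorter genes -0.44 ± 4.34 (exact sign-flip permutation p = 1 for each). The small mean difference from the ends joins differences of opposite sign. With list 2 held out the interior was higher (67.0 to 71.5 against 55.8 to 64.0, exact binomial intervals). With list 3 held out it was lower (62.3 to 66.8 against 72.3 to 80.5). List 1, the largest, found most in every class. Among interior regions of long genes, those on the opposite strand were found in 93.2%, 82.6% and 68.5% and those on the gene's strand in 89.4%, 66.1% and 63.8%. The difference of 8.33 ± 7.08 points had the same direction in 3 of 3 lists (exact permutation p = 0.25). Here too an opposite region entered only where its strand held most sites of the gene in the 2 lists used. Orientations were not compared without that choice. In all comparisons of held-out lists the 3 values are not independent, because any 2 of the region sets share a list. Their SD and p-values therefore do not measure the spread of independent lists.

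**Figure D5:**
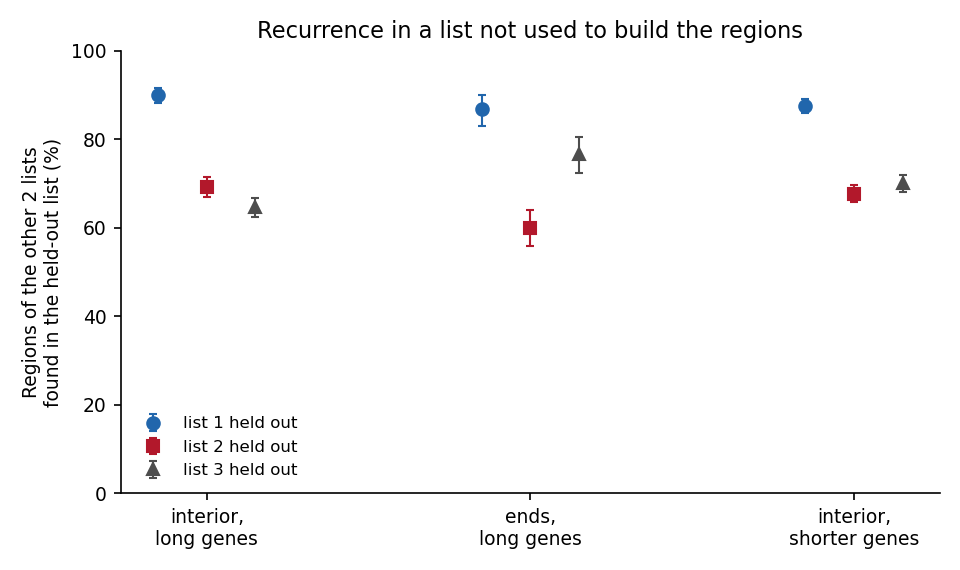
Percentage of regions shared by 2 lists that were found within 10 nt in the held-out list, with 95% exact binomial intervals. Interior regions of long genes range from 64.6% to 90.0%. They stand above the ends of long genes with list 2 held out and below them with list 3 held out.

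Long genes known for ESRP-dependent splicing were often bound in their interior. The list was written with earlier results of these data known, so its count is not independent evidence. Of 17 such genes with a long span 12 had a member (70.6%, against 31.9% of all long genes), with 19 regions in all. Magi1, a junction scaffold gene, had 3, and Fgfr2, Enah, Macf1, Cask and Epb41l5 had 2 each. Mprip, Ralgps2, Lrrfip2, Myo9a and Numb were among those with 1, and Arhgef11, Kif13a, Mbnl1, Osbpl3 and Tcf7l2 had none. Both regions of Fgfr2, the receptor gene whose alternative exons ESRP proteins choose between, lay on the 3′ side of the middle of the gene, 66827 and 68101 nt into 104358 nt. The one at chr7:130199976-130199987 scored 131, 71.4 and 81.2 in lists 1, 2 and 3, and the other, 1 nt long at 130198707, scored 121, 136 and 95.7. Enah, an actin regulator gene, had a strong region, chr1:181909966-181909985 on the minus strand, with 128, 98.0 and 109, close in all lists. Lrrfip2 had a region of 115, 50.3 and 85.3 at chr9:111193166-111193175. Both Macf1 regions were weak, with scores of 5.64 to 26.9.

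Genes of cell junctions, polarity and cytolinkers had a member in 15 of 24 long genes (62.5%), with 34 regions. After Pard3 with 7 came Lama3, Magi1, Afdn, the afadin gene, and Cdh13, a cadherin gene, with 3 each. The strongest Afdn region, chr17:13891058-13891067, had 73.1, 53.9 and 76.7 in lists 1, 2 and 3. Transcription and chromatin regulators had 18 of 30 (60.0%), led by Tead1, a Hippo pathway factor gene, and Rora, a nuclear receptor gene, with 4 each and Bach2 with 3. In Tead1 the region at chr7:112804196-112804217 on the plus strand scored 304, 182 and 135, and the other 3 scored between 3.89 and 86.4. Kinase, phosphatase and GTPase signalling genes had 17 of 33 (51.5%), with 4 regions in Tiam1, a Rac exchange factor gene, and 3 each in Prkch, Rasal2 and Bmpr2, a BMP receptor gene. RNA-binding proteins and splicing regulators had 8 of 19 (42.1%), with 2 regions each in Tnrc6b, Qk and Msi2 and 1 in Rbm47. Each of these and the ESRP list had a larger share of bound genes than the 31.9% of all long genes, and all 5 lists were chosen with earlier results known. Span length was not matched, and the median long span of the lists was 135685 nt for ESRP targets, 265961 nt for junctions, 346118 nt for transcription, 217915 nt for signalling and 213688 nt for RNA-binding proteins. The last 4 medians fall in the class of 200000 to 400000 nt, where 36.2% of genes had a member, and the first in that of 100000 to 200000 nt, with 27.1%.

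Of 35 very long genes best known from neurons 15 (42.9%) had a member, with 22 regions, and 30 had a site. The share was 31.9% over all long genes and 48.0% over genes of 800000 nt or more. Their median span of 1135620 nt was far above that of all long genes, and they held 0.521 regions per megabase of interior against 1.93 for all long genes. Ptprd, a receptor phosphatase gene, had 5, and the teneurin gene Tenm4, the guidance receptor gene Robo1 and the adhesion gene Lsamp had 2 each. Lrp1b, among the longest member genes at 2058309 nt, had 1 region with 128, 94.7 and 97.9 at chr2:41888318-41888329. No annotated strand was at hand for Ptprd or Lrp1b, so whether their regions lie on the gene's strand or opposite to it is unknown. On the chromosomes used for strand, 12 of the 22 regions had an annotated strand. The remaining longest spans with a member were those of Dmd, Ptprd, Lsamp and Macrod2. Markers of melanocytes, fibroblasts, immune, endothelial and muscle cells had a member in 2 of 10 long genes. These were the muscle gene Dmd with 2 regions (highest scores of 18.6, 11.9 and 25.6 in the stronger) and Mitf, the melanocyte factor gene, with 1 (5.72, 24.3 and 19.7). Expression was not measured, so the share of bound genes in a list cannot be told apart from how strongly its genes are transcribed in epidermis.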

How the data were processed

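The sites were deposited by the authors as 3 lists, called with input per the file headers, each on 2 replicates, so single libraries cannot be compared. The score of a site is the authors' deposited value, with no stated scale. Processing notes of the submitters name cutadapt 1.16, HISAT2 2.1.0, HOMER, GRCm38 and mm10 without roles, and a label's file title names PureCLIP, a caller of crosslink sites, likewise; which caller gave the scores and the treatment of reads with several alignments are not stated in these sources, and both can add or remove sites in repeated sequence. Gene spans came from RefSeq genes of GRCm38.p6, and gene strand and sequence from its promoter table. Regions, shares and Clopper-Pearson intervals (95%) were computed in Python 3.11.15 with pandas 2.3.3 and scipy 1.17.1, and the counting was checked on planted sites. Named genes were the 12 with most members (ties by sites on the members' strand), the 10 leading regions, bound members of the ESRP list (some not reported here), the 4 leading genes of each other list, the 5 longest spans and those nearest the thresholds; Gm7592, Trip12, Gpc6, Ptprb, the unbound ESRP genes and the examples of strand were named after their values were seen. The members and the 7 gene lists were chosen with earlier results of these data known, and the strand comparison was added after the data were seen. Exact permutation tests over 3 lists cannot go below p = 0.25.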

Additional observations from a re-analysis of the deposited data

Results flagged for a closer look

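Besides the 1152 regions described, 104 interior regions of long genes were found in all 3 lists on the strand with fewer, or in 3 cases equally many, sites. The rule leaves them out, so they are a signal outside the main measurement. They lay in 92 genes, 21 were under a pseudogene, and their median score percentile over the lists was 74.3, against 72.9 for the members. Of 68 with an annotated strand, on the chromosomes used for strand, 46 were opposite to the gene. Choosing the strand with fewer sites favours such a majority, since 659 of 824 members lay on the gene's strand.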

How the results depend on the processing

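No paired analysis was possible because each list pools 2 replicates with their input and no value of a single library is given. The planned motif and intron shares were not run, since no genome or exons were used. Leaving out a list gave 1276 to 1779 members (1779 without list 3), 825 to 1032 genes, 10.8% to 13.4% of members under another gene, 81.3% to 87.4% with a nucleotide shared by the lists left, and 20.2% to 23.1% of interior regions opposite to the gene. Spans of at least 50000 nt gave 1859 members in 1239 genes and 20.2% opposite, and spans of at least 200000 nt 594 members in 386 genes, with too few strands known to give the opposite share. With the 50% of sites with the highest scores there were 721 members, 16.5% of them under another gene, 85.2% with a shared nucleotide and 28.7% of regions opposite. The opposite share was 20.7% at 1000 nt or more from the ends and 19.5% under no other gene, and too few strands were known at 20000 nt. Joining sites within 5 nt gave 81.1% with a shared nucleotide, and within 50 nt 74.4%. The other 46 of 65 values moved by less than their error or 1.5 times, and recurrence in a held-out list stayed within 1 SD of its main value under each of the 9 alternatives run. Under no other gene, shorter genes had 9.24% and ends of long genes 2.83% opposite; the classes compared were not recomputed under the other settings. The 3 lists limit every test, and unknown depth leaves absent regions open to missed calls.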
